A study of Danio rerio with 6 samples.

Results

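The rMATS table of skipped exons that the authors deposited for *sart3* mutant zebrafish holds 1327 events, and 363 of them skip an exon longer than 120 bp. These 363 long exon events are described here. They were chosen by exon length among rows that the authors had called significant in the contrast of mutants with siblings, so the contrast itself chose them, and their differences in inclusion are given as a description with no test. The other rows skip an exon of 61 to 120 bp (518 events) or of up to 60 bp (446 events). The 363 events cover 337 distinct exons of 319 genes, since an exon that can be skipped between different neighbours has a row for each pair. Whole larvae at 4 days post fertilization (dpf) were sequenced, 3 libraries of *sart3*-/- larvae and 3 of their wild-type (WT) siblings. Both came from crosses between *sart3*+/- parents and were told apart by high-resolution melting genotyping. The mutant allele, *sart3* smu471, carries a nonsense mutation and came from a chemical mutagenesis screen. How many larvae were pooled in a library is not given in the sources used here, so the spread between libraries may be partly technical. Whole animals were lysed, so each value is an average over all tissues.

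A skipped exon, or cassette exon, is an internal exon that is kept in some mRNAs of a gene and left out of others, together with the introns on both sides. Most vertebrate exons are recognised as units through the splice sites at both ends, and very short or very long exons can need additional enhancer elements. If the length of a coding exon is a multiple of 3, skipping removes amino acids and keeps the reading frame. Otherwise the frame shifts downstream, which often brings a premature stop codon. Sart3 is a recycling factor of the spliceosome: it helps U4 and U6 small nuclear RNAs to join again after each round of splicing.

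Inclusion compares the form that keeps the exon with the 1 skipping form of its row, which joins that row's pair of neighbours. It was estimated as reads that show inclusion over all reads of the event. Each read number was divided by the length of the form on which such reads can fall. It is thus not a share of all transcripts of the gene, and an exon can have unlike values in different rows. Exon 6 of *matn4*, numbered as below, had sibling means from 6.8 to 100% over its rows. In all 1327 rows the effective length of the inclusion form equalled the exon length plus 149 bp, so reads inside the exon body count for inclusion. Rows of the same exon therefore share reads and are not independent. Differences are given in percentage points, mutant minus sibling. The 3 values of a group are listed in the order of the table, which does not name the library behind each position. Intervals and lower limits on single values cover counting error only.

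Total counts on genes lay between 16008788 and 18310233 per library. The long exon events held 32365 to 35952 reads in the sibling libraries and 44477 to 50235 in the mutant libraries. These sums count reads shared between rows more than once. The *tnnt3b* event described below alone held 11900 skipping reads over all libraries, most of them in mutants. Sibling libraries held 1178, 1218 and 1246 reads of *sart3* itself, and mutant libraries 923, 772 and 825, for a log2 fold change of -0.44. Among 8 lists of cell type markers, the summed level of the photoreceptor list was 2412 to 2974 CPM (counts scaled to a common library size) in the sibling libraries and 758 to 804 CPM in the mutant libraries, with 6 of 6 genes called lower. For the exocrine pancreas list the sum was 2871 to 3010 CPM in siblings against 56.6 to 70.2 CPM in mutants, with 5 of 5 tested genes called lower. For the lens list 4 of 5 were called lower, and for the neuron list 3 of 6, with sums of 1914 to 2015 CPM (siblings) and 1693 to 1794 CPM (mutants). The skeletal muscle list stood at 26540 to 30140 CPM and 34370 to 35760 CPM, with 5 of 6 tested genes called higher and 1 lower. Sums were 3725 to 4395 CPM (siblings) and 3140 to 4432 CPM (mutants) for the liver list, with 1 of 5 called lower, and 4496 to 4915 and 5055 to 5539 CPM for the epidermis list, with 2 of 5 called higher and 1 lower. The red blood cell list had 291.8 to 388 CPM in siblings and a wider 197.5 to 756.9 CPM in mutants. Fewer cells of a type and less RNA per cell cannot be told apart in whole larvae. Inclusion that differs between tissues can also move with such levels, and the part of tissue make-up in the values below was not tested.

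Long exons were included less often in mutants in most events. Mean inclusion was lower in mutants in 256 of the 363 events (70.5%), against 74.8% of all deposited skipped exons, and higher in 107 (29.5%), against 25.2%. The median difference was -14.7 points, beside -17.6 points for exons of 61 to 120 bp and -16.8 points for exons up to 60 bp. Median inclusion was 82.5% in siblings and 65.7% in mutants. Taken library by library, the median was 86.7, 86.1 and 89.2% in siblings and 65.9, 67.9 and 67.2% in mutants, and every mutant library lay below every sibling library. The contrast of these same libraries chose the rows, so this separation is no independent check. In 146 events (40.2%) the 3 mutant values and the 3 sibling values did not overlap, against 43.6% of all skipped exons. These shares were close to those of the whole table, and no test of the long exons against the others was made.

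**Figure D1:**
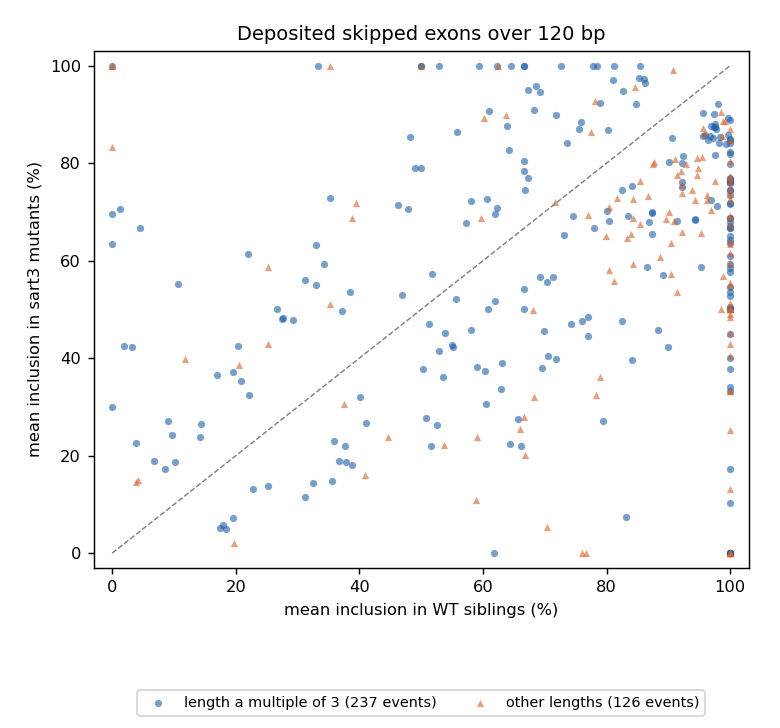
Mean inclusion of each of the 363 long exon events in WT siblings (x axis, %) and *sart3* mutants (y axis, %), with circles for exons whose length is a multiple of 3 and triangles for other lengths. The dashed line marks equal inclusion, 256 events lie below it and 107 above, and the column of points at the right edge holds events with 100% inclusion in siblings.

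Which way an event differed went with where it started. Of the 87 events with 100% inclusion in siblings, all had to be lower in mutants to be listed, and their median difference was -40.4 points. Among the 64 events with a sibling inclusion of 90 to under 100%, 63 were lower, with a median of -14.0 points. In the 136 events between 50 and 90%, 86 were lower. Below that the direction turned: 38 of 58 events with 10 to 50% were higher in mutants, with a median of 16.7 points, and so were all 18 events under 10%, with a median of 39.7 points. An inclusion close to either end leaves room for a difference in 1 direction only, so these counts describe the range of the measure as well as the exons. The sibling value is also part of the difference, so spread between libraries can add to such a pattern in every class. How much it adds was not tested.

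Read depth varied widely between members. A total of 213 events had at least 10 reads in every library and 177 had at least 20, while 71 had no read in at least 1 library. In 84 events no sibling library held a skipping read, and 45 of these had fewer than 10 skipping reads in the mutant libraries together. Among the 177 deeper events, 130 were lower and 47 were higher in mutants, the median difference was -12.4 points, and 110 did not overlap between the groups. These are 73.4, 26.6 and 62.1% of the deeper events, against 80.3, 19.7 and 65.6% of all skipped exons with that depth. The median SD between libraries of a group was 6.56 points in siblings and 11.9 points in mutants over all members. Of the 52 events with a difference of at least 50 points in size, 1 was among those 177, the *tnnt3b* event described below.

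**Figure D2:**
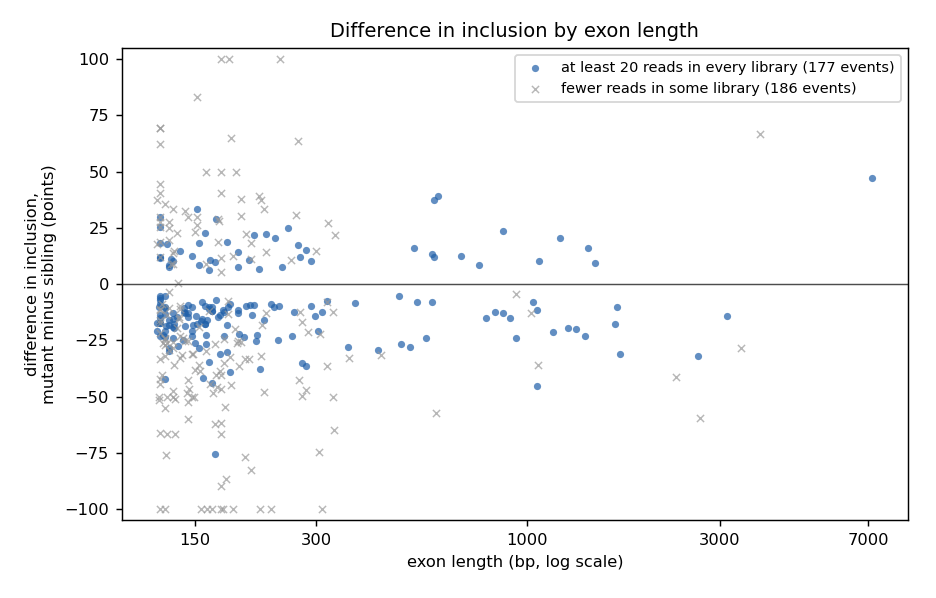
Difference in mean inclusion (mutant minus sibling, percentage points) of each long exon event against exon length (bp, log scale). Circles are the 177 events with at least 20 reads in every library and crosses the 186 with fewer or with reads not recovered, which hold all but 1 of the 52 differences of at least 50 points in size.

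The exons were 121 to 7170 bp long, with a median of 166 bp. Lower inclusion in mutants was the more common direction in each length class: 103 of 141 exons of 121 to 150 bp, 75 of 105 of 151 to 200 bp, 32 of 55 of 201 to 300 bp, 29 of 39 of 301 to 1000 bp and 17 of 23 above that. Median differences were -15.9, -16.6, -9.8, -12.3 and -17.6 points in the same order, which neither rose nor fell steadily with length. Just above the 120 bp limit, 7 events of 121 and 122 bp ranged from -51.6 to 37.6 points with a median of -17.1, and 5 were lower (*srsf11*, *hccsa.1* and *cyp3c1* among them) and 2 higher (*wnt7bb* and *wdr38*). Just below it, 12 events of 119 and 120 bp ranged from -62.2 to 100 points with a median of -20.3, and 7 were lower (such as *chata* and *braf*) and 5 higher (such as *tbc1d1* and *ppp1r1b*). The ends of both ranges rest on shallow rows. A library held 0 reads in the row at 100 points, in *tbc1d1* and in *wdr38*, which is the row at 37.6 points. The rows at -62.2 and -51.6 points had as few as 6 and 3 reads in a library.

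The length was a multiple of 3 in 237 of the long exon events (65.3%). The share was 64.1% for exons of 61 to 120 bp and 81.2% for exons up to 60 bp, so long exons resembled the middle class more than the short one. Frame differed with direction. Of the 107 events higher in mutants, 84 (78.5%) had a length that is a multiple of 3, against 153 of the 256 lower events (59.8%). At 20 reads or more in every library these were 40 of 47 (85.1%) and 84 of 130 (64.6%). Frame also went with sibling inclusion: 45 of the 58 events with 10 to 50% inclusion were multiples of 3, 32 of the 64 with 90 to under 100%, and 50 of the 87 with 100%. Within classes of sibling inclusion the difference was seen in 1 class: between 50 and 90%, 55 of 97 events with a multiple of 3 were lower in mutants and 31 of 39 with other lengths. Between 10 and 50% these were 16 of 45 and 4 of 13, and from 90 to under 100% they were 32 of 32 and 31 of 32, while in the classes under 10% and at 100% all events went one way. Events share genes and exons, so these counts carry no test.

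The introns on either side had median lengths of 2847 bp before and 2575 bp after the exon, in the direction of transcription. The 23 exons longer than 1000 bp sat between introns with medians of 8070 and 12562 bp. A neighbouring exon lay at the annotated 5′ end of the gene in 52 events and at the 3′ end in 35, and the median position along the gene was 54.7% of its length. Nearly all rows, 356, fell in protein-coding genes. The same exon also appears among the deposited mutually exclusive exons in 47 events (26 exons of 19 genes), in the alternative 3′ splice site table in 1 event, and in neither the alternative 5′ splice site nor the retained intron table.

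The largest difference among well covered events was in *tnnt3b*, which encodes fast skeletal muscle troponin T, the subunit that ties the troponin complex to tropomyosin on the thin filament. Its 168 bp exon (chr7:39447953-39448120, plus strand, coordinates in GRCz11) had an inclusion of 59.9, 97.2 and 92.3% in siblings and 7.08, 5.06 and 10.2% in mutants. Among siblings the 1st value, with a 95% Wilson interval of 54.7 to 64.9%, lay outside the intervals of the other siblings, and all 3 siblings were far above all mutants. Means were 83.1 ± 20.3% and 7.45 ± 2.60% (SD, n = 3 each). The reads that skip the exon numbered 111, 7 and 12 in siblings and 4278, 2494 and 4998 in mutants, while inclusion reads numbered 353, 525 and 305 against 693, 283 and 1211. A separate row of the same exon, with another upstream neighbour, had 3519, 3297 and 0 skipping reads in mutants and inclusions of 8.78, 4.74 and 100%. In that row the 3rd mutant value stood apart and the groups overlapped. Inclusion of the exon was thus low in all 3 mutants for skipping from one upstream exon and in only 2 of them from the other. In the former row skipping reads were higher in every mutant, while inclusion reads were below all siblings only in the 2nd mutant. Counts on the whole gene were 47349 to 55072 in siblings and 61712 to 72468 in mutants. In siblings the reads of the event were thus a small part of those on the gene. Expression of *tnnt3b* was higher in mutants (log2 fold change 0.47, SE 0.07, adjusted p = 0.00184, edgeR quasi-likelihood).

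Among the channel and synaptic genes, *kcnn3* encodes a small-conductance potassium channel that opens with calcium. Its 1059 bp exon (chr16:23599996-23601054) had 177, 122 and 124 inclusion reads and no skipping read in siblings, which allows inclusions down to 87.9, 83.4 and 83.6% with 3 reads. In mutants it had 100, 98 and 86 inclusion reads and 15, 10 and 6 skipping reads, or inclusions of 45.1, 54.7 and 63.9%. Few skipping reads set these values, because a long exon collects many inclusion reads for each transcript: the difference of -45.4 points was -9.61 when shares of reads were taken without effective lengths. *SNAP91*, which encodes an adaptor for clathrin coats at synapses, had inclusions of 100, 40.0 and 58.5% in siblings and 30.6, 14.8 and 20.8% in mutants at a 165 bp exon (chr4:5281755-5281919). The siblings lay far from each other, but none came down to a mutant value, which was a condition for naming the event. The difference of -44.1 points was -27.2 without the 1st sibling.

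Junction and matrix genes stood among the lower events too. The 157 bp exon of *tjp1a* (chr7:30988639-30988795), a scaffold of tight junctions, was included at 100, 96.6 and 100% in siblings and at 48.8, 60.1 and 61.9% in mutants. Its length is not a multiple of 3. *acana* encodes aggrecan, the large proteoglycan of cartilage, and its 183 bp exon (chr7:48785059-48785241) had 126, 79 and 86 inclusion reads in siblings with no skipping read, so that inclusion was 100%, with lower limits of 92.2% or more. Mutants had 38, 18 and 23 skipping reads, for inclusions of 47.6, 65.2 and 70.1%, all below the sibling limits. *pcdh7b*, a protocadherin of the cell surface, went from 89.4, 88.7 and 96.3% in siblings to 71.0, 53.1 and 36.6% in mutants at its 217 bp exon (chr7:63458075-63458291). The mutants differed from each other here by more than the siblings did.

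Transcription factors and a phosphatase subunit were also among these events. A 277 bp exon of *bach2b* (chr20:24099216-24099492), a transcription factor known for lymphocyte development in mammals, had an inclusion of 74.3, 54.0 and 48.9% in siblings and 16.02, 32.9 and 22.4% in mutants. *tfap4*, which the files describe as transcription factor AP-4, had 70.9, 88.8 and 87.6% against 44.9, 51.5 and 46.5% at a 162 bp exon (chr3:12209654-12209815). Groups did not overlap in either gene, which was a condition for naming them among the largest differences. *ppp2r3a* encodes a regulatory subunit of protein phosphatase 2A, and its 2652 bp exon (chr2:25245157-25247808) was skipped by no read in siblings and by 3, 6 and 14 reads in mutants, for inclusions of 79.5, 71.2 and 53.1%. With 3 reads the sibling limits were 73.8 to 84.1%, so counting error alone reaches the highest mutant value. The difference of -32.1 points was -2.65 without effective lengths. The remaining 3 of the 12 largest differences towards lower inclusion were *fam168a* (126 bp, mean 64.3 ± 15.6% in siblings and 22.3 ± 5.54% in mutants), *glyr1* (282 bp, 95.3 ± 8.19% and 58.6 ± 19.01%) and *lrrc40* (173 bp, 100% and 68.9 ± 13.04%).

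**Figure D3:**
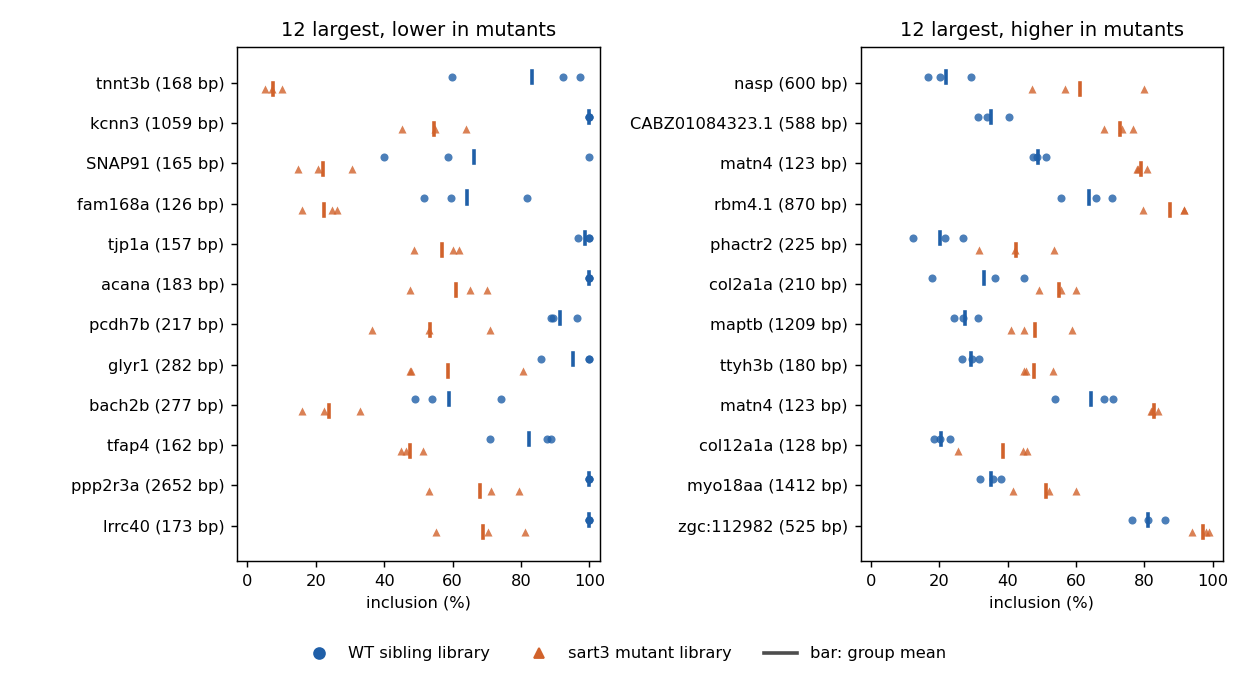
Inclusion (%) in each library for the 12 largest differences towards lower (left) and towards higher (right) mean inclusion in mutants among long exon events with at least 20 reads in every library and groups that do not overlap. Circles are WT sibling libraries, triangles *sart3* mutant libraries and bars group means, and only *tnnt3b* reaches a mutant mean under 10%.

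Among events with at least 20 reads in every library and no overlap, the largest difference towards higher inclusion was in *nasp*, a chaperone that binds histones before they enter chromatin. Its 600 bp exon (chr6:33913790-33914389) was included at 29.3, 20.1 and 16.6% in siblings and at 47.2, 79.9 and 56.8% in mutants. Skipping reads were few here, 12, 15 and 17 in siblings and 8, 3 and 5 in mutants. *CABZ01084323.1*, for which the files give no description, had 31.3, 33.9 and 40.5% against 68.2, 76.6 and 73.4% at a 588 bp exon on the unplaced scaffold KN150000.1. A 2nd row of that exon, with a downstream neighbour that starts 3 bp away, had means of 82.7 ± 3.78% and 94.8 ± 3.68%.

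Both long exons of the *rbm4* pair were higher in mutants. *rbm4.1* and *rbm4.2* are neighbours on chromosome 7 and encode RNA-binding proteins that regulate splicing in mammals. The 870 bp exon of *rbm4.1* (chr7:22805210-22806079) had an inclusion of 70.4, 55.5 and 65.7% in siblings and 91.5, 79.6 and 91.7% in mutants. At the 760 bp exon of *rbm4.2* (chr7:22799118-22799877) the means were 90.7 ± 4.34% and 99.0 ± 0.844%. Expression of the genes was higher as well, with log2 fold changes of 0.59 (adjusted p = 0.000643) and 1.03 (adjusted p = 0.000145), both by edgeR. Near-identical stretches of the pair could share reads, and how such reads were counted is not given in the sources used here.

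Paralogues of *myo18a*, an unconventional myosin, showed the same direction. The 1412 bp exon of *myo18aa* (chr10:36953606-36955017) had 35.9, 37.9 and 31.9% in siblings and 52.0, 59.9 and 41.4% in mutants. *myo18ab*, with a 1473 bp exon (chr15:24114749-24116221), had means of 14.2 ± 1.63% and 23.7 ± 4.25%. Neither gene was called in expression. These pairs of paralogues were picked after their values were seen. In *cep170b* and *CEP170B*, another pair that was looked up in that way, the directions differed. The former had 48.2, 52.8 and 49.1% in siblings and 77.0, 59.8 and 100% in mutants, and the latter 82.7, 87.3 and 100% against 30.1, 58.6 and 38.2%, both with libraries under 20 reads.

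Collagen and microtubule genes also had exons with higher inclusion. *col2a1a* encodes the main collagen of cartilage, and its 210 bp exon (chr8:21198214-21198423), next to the exon at the annotated 5′ end, was the most deeply covered member with at least 1768 reads in each library. Inclusion was 17.98, 44.9 and 36.2% in siblings and 49.3, 60.01 and 55.6% in mutants. Among siblings the 1st value lay far under the others, and the highest sibling value was close below the lowest mutant value. Without the 1st sibling the difference of 21.9 points was 14.4. The 1209 bp exon of *maptb* (chr3:22179600-22180808), which encodes the microtubule-binding protein tau, had 24.2, 27.0 and 31.4% in siblings and 44.7, 40.9 and 58.8% in mutants. For *col12a1a*, a collagen that sits on fibril surfaces, the 128 bp exon (chr17:49922981-49923108) had 18.3, 23.1 and 20.3% against 45.7, 44.6 and 25.5%, with the 3rd mutant close to the siblings. The other events of this direction were *phactr2* (225 bp, 20.3 ± 7.52% and 42.4 ± 10.9%), *ttyh3b* (180 bp, 29.2 ± 2.49% and 47.8 ± 4.71%) and *zgc:112982* (525 bp, 81.1 ± 4.86% in siblings and 94.1, 98.9 and 98.1% in mutants). *zgc:112982* had a second member of 687 bp between the same neighbours, with 85.2 ± 3.52% and 97.5 ± 2.24%, which rests on the same skipping reads.

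The gene with the most rows was *matn4*, with 25 of the 363 events. It encodes matrilin 4, an adaptor of the extracellular matrix built from von Willebrand factor A domains and EGF-like repeats. The rows concern 7 exons on chromosome 6, each 123 bp long, which are numbered here from 1 to 7 along the gene. In 13 rows inclusion was lower and in 12 higher in mutants, so no single direction fits the gene. Exon 2 (chr6:52818015-52818137), when skipping joins exon 1 to the exon after exon 7, had an inclusion of 48.6, 47.4 and 51.1% in siblings and 80.6, 78.2 and 77.9% in mutants. Libraries of each group lay close together, with SDs of 1.91 and 1.48 points. Exon 7 (chr6:52827011-52827133) with the same skipping junction had 70.7, 53.8 and 68.3% against 83.9, 82.2 and 81.9%. Both rest on 141, 188 and 120 skipping reads in siblings and 58, 57 and 74 in mutants, so they are 1 observation of the long skip seen from 2 exons.

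Several other rows of *matn4* had lower inclusion in mutants. For exon 6 between exons 5 and 7, inclusion was 92.2 ± 5.40% in siblings and 75.1 ± 3.34% in mutants, on 26, 4 and 31 against 125, 83 and 103 skipping reads. Exons 3 and 4, when exon 2 was joined to exon 5, had 98.1 ± 1.09% and 97.4 ± 1.79% in siblings and 92.02 ± 1.38% and 90.2 ± 1.58% in mutants. That junction had 2, 4 and 1 skipping reads in siblings against 18, 12 and 21 in mutants. Length of the skip did not set the direction throughout. Exon 1, when an upstream exon was joined to the exon after exon 7, had 84.1 ± 6.75% and 75.3 ± 13.6%, and exon 4 between exons 2 and 6 had 46.2 ± 20.3% and 71.5 ± 25.3% with as few as 9 reads in a library, both with overlapping groups. Of the 9 rows with at least 20 reads in every library, 6 were lower and 3 higher in mutants, and the 16 shallower rows split into 7 and 9. Identical exon lengths and similar repeats make it uncertain how reads were split between neighbouring exons. Expression of *matn4* was higher in mutants (log2 fold change 0.44, SE 0.06, adjusted p = 0.000909, edgeR quasi-likelihood).

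**Figure D4:**
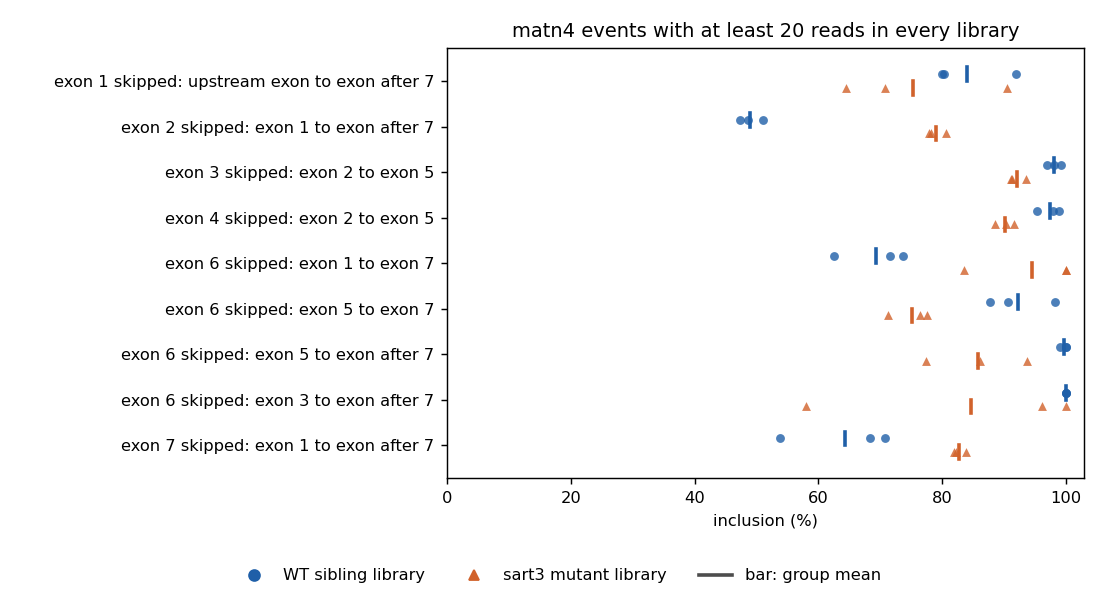
Inclusion (%) in each library for the 9 *matn4* rows with at least 20 reads in every library. Each row names the skipped exon, numbered 1 to 7 along the gene, and the exons that the skipping junction joins. Circles are WT sibling libraries, triangles mutant libraries and bars group means, and rows in which exon 1 is joined to exon 7 or the exon after it have higher inclusion in mutants.

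Members were then grouped by 7 lists of gene symbols, which together held 112 events of 103 genes, 69 of them lower and 43 higher in mutants. Genes entered a list by symbol pattern, so a list can hold genes of other functions, and not all of these are named below. Over all skipped exons 74.8% were lower and 25.2% higher in mutants, and 80.3% were lower among those with at least 20 reads in every library. No list was tested against these shares. The list of RNA processing genes had 12 events in 10 genes, all with at least 20 reads in every library, and 10 of the 12 were lower in mutants. Among its members were SR proteins, a family that binds exonic enhancers and recruits the splicing machinery. *srsf7b* had a 426 bp exon (chr11:44361624-44362049) included at 53.8, 43.1 and 57.7% in siblings and at 16.3, 25.3 and 24.6% in mutants. The 121 bp exon of *srsf11* (chr11:45393085-45393205) had 44.2, 42.8 and 46.9% against 21.98, 23.3 and 26.4%. Here all 6 values rest on at least 398 reads and both groups were tight, so this is among the best measured members. In *srsf6b* the means were 37.6 ± 7.18% and 30.7 ± 3.89%, and the groups overlapped.

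Other RNA processing genes with a long exon event were *celf1*, a regulator of muscle and brain splicing (53.5 ± 6.17% and 36.1 ± 4.97%), and *srrm1*, a coactivator with SR repeats (18.5 ± 8.05% and 5.06 ± 1.099%). Both were separated between the groups. *msi2b*, which encodes a Musashi protein, had 100% in all siblings and 95.9, 100 and 49.6% in mutants at a 180 bp exon, a difference of -18.2 points that was -2.08 without the 3rd mutant. All 3 events of *msi2b* were lower in mutants, so this gene gave 3 of the 10 lower events of the list. Of the 10 host genes 6 were called higher in expression and 2 lower. Over the whole list 94 of 350 tested genes were higher and 45 lower. Shares called higher and lower were 13.6 and 14.3% of all genes tested, and 23 and 8.85% of all tested host genes of long exon events.

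Chromatin and transcription genes had 13 events, 10 lower and 3 higher in mutants, beside 74.8% lower over all skipped exons. *kdm6a* encodes a demethylase of lysine 27 on histone H3, and a 135 bp exon (chr9:33836735-33836869) had 74.6, 62.7 and 76.5% in siblings and 60.8, 53.6 and 55.7% in mutants. *bptf*, a chromatin remodelling subunit, had 38.9, 43.9 and 40.5% against 12.9, 38.3 and 28.9% at a 171 bp exon. Groups were apart in both genes, though in *bptf* the closest values nearly met and the difference of -14.4 points was -7.53 without the 1st mutant. The DNA methyltransferase paralogues *dnmt3ab* and *dnmt3ba* did not move together, with 38.8 ± 11.1% to 18.2 ± 5.69% in the former and a difference of 10.4 points upwards, with overlapping groups, in the latter. A 178 bp exon of *foxp2*, a transcription factor of the developing brain, was skipped by no sibling read and by 17, 26 and 7 mutant reads, but 1 sibling library held only 16 reads. *znf536*, a zinc finger gene, had 2 members: a 1701 bp exon with 100% in siblings and 61.7, 44.6 and 100% in mutants, and a 133 bp exon with 13.3, 18.9 and 27.1% against 2.57, 2.35 and 1.30%. The groups overlapped in the former and not in the latter. For the longer exon the difference of -31.2 points was -19.2 without the 2nd and -46.8 without the 3rd mutant, and -4.62 without effective lengths. Only 7 skipping reads over all libraries set that difference.

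The muscle and cytoskeleton list held more events that were higher (15) than lower (11) in mutants, and 23 of its 26 events had a length that is a multiple of 3. At 20 reads or more it split into 8 and 8. Beside *tnnt3b* and the *myo18a* pair it held *mylk5*, a kinase of the myosin light chain kinase family, whose 153 bp exon (chr3:31669003-31669155) had 84.6, 69.8 and 73.6% in siblings and 54.1, 50.8 and 38.0% in mutants. *myom1b*, which encodes a protein of the sarcomere's M band, had 19.5 ± 3.58% and 7.16 ± 2.17%. *obscnb* encodes the giant sarcomere protein obscurin and went the other way, from 28.7, 43.8 and 43.1% to 66.7, 48.5 and 45.6%, a difference of 15.1 points that was 8.57 without the 1st mutant. For *mybpc3*, cardiac myosin binding protein C, the groups overlapped at 6.64, 19.7 and 32.5% against 53.4, 30.4 and 27.4%, and the difference of 17.5 points was 9.30 without the 1st mutant and 10.98 without the 1st sibling. Microtubule-associated *map4l* had a 1071 bp exon that was higher in mutants (22.1 ± 1.24% to 32.5 ± 2.56%) and a 192 bp exon that was lower (96.4 ± 2.21% to 84.7 ± 2.09%), with no overlap in either. The longest member, the 7170 bp exon of the membrane scaffold *ank3b*, had 3.04, 55.4 and 100% in siblings and 100% in all mutants, on 24, 2 and 0 skipping reads in siblings. The groups overlapped, and the difference of 47.2 points was 22.3 without the 1st sibling and 13.7 without effective lengths. Of the 23 host genes 10 were called higher in expression and none lower, while over the whole list 91 of 385 were higher and 51 lower. All genes tested had 13.6% called higher and 14.3% lower, and all tested host genes 23 and 8.85%. As given above, 5 of 6 tested skeletal muscle markers were called higher, while *ckma* was called lower (log2 fold change -0.96). Among the 5, *pvalb2* had only 4, 1 and 4 counts in siblings and 36, 18 and 29 in mutants. *tnnt3b* is counted among both the markers and the host genes.

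Neuronal and synaptic genes, among them channels, transporters and guidance receptors, had 28 events, 18 lower and 10 higher. *adgrl2a* encodes a latrophilin, an adhesion receptor at synapses, and its 129 bp exon (chr11:7726674-7726802) had 85.1, 65.2 and 60.99% in siblings and 19.2, 48.2 and 54.1% in mutants. Its difference of -29.9 points was -19.3 without the 1st mutant. *gabra5*, a subunit of the GABA A receptor, had 100% in siblings and 93.7, 63.2 and 67.4% in mutants on 1, 6 and 7 skipping reads. The 1st mutant value thus rests on 1 skipping read, and the shallowest library held 31 reads. For *gabra5* the difference of -25.2 points was -12.9 without effective lengths. *plxna1a*, a receptor for semaphorins, had no skipping read in siblings and 4, 5 and 2 in mutants over a 1394 bp exon, for 73.2, 72.6 and 84.9%. Its 1st sibling library held 33 reads, which allow an inclusion down to 51.5%, and the difference of -23.1 points was -2.88 without effective lengths. The presynaptic *stxbp1a*, which is needed for vesicle fusion, had a small but separated difference, from 40.6, 37.4 and 42.4% to 31.0, 30.6 and 34.2%. In the other direction, the 579 bp exon of *nrxn3a*, a presynaptic adhesion protein, had 78.9 ± 6.92% and 92.3 ± 1.16%. *cacna1ha*, a T-type calcium channel, had 60.2 ± 14.2% and 89.3 ± 18.6% with overlap. Over the whole list 113 of 978 genes were called higher and 149 lower in expression, with 2 and 4 of the 26 tested host genes. Beside these stand 13.6% higher and 14.3% lower over all genes tested, and 23 and 8.85% over all tested host genes.

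Matrix and adhesion genes had 15 events, 9 lower and 6 higher. Beyond *acana*, *tjp1a* and *pcdh7b*, the 486 bp exon of *cdh18a* (chr2:29257720-29258205), a cadherin, had 100% in siblings with limits of 90.4 to 92.3% and 84.1, 65.2 and 70.8% in mutants. Only 11 skipping reads over all libraries set these mutant values, and the shallowest library held 27 reads. Expression of *cdh18a* was also lower, with a log2 fold change of -1.01 (SE 0.16, adjusted p = 0.00192, edgeR quasi-likelihood). *col11a1a*, a minor fibrillar collagen of cartilage, had 80.3, 84.0 and 86.1% against 65.3, 62.9 and 79.4%. The exon of *col11a2* had 62.6, 63.1 and 60.3% against 65.6, 62.9 and 80.4%, where 2 mutants lay among or near the siblings and the difference of 7.63 points was 2.23 without the 3rd mutant. Collagen exons thus went both ways. *tnrc6c1*, which works in gene silencing by microRNAs, is in this list by its symbol only.

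Trafficking and GTPase regulators had 13 events, 11 of them lower in mutants, and all 7 with at least 20 reads were lower. Over all skipped exons 74.8% were lower, and 80.3% of those with that depth. *epn2* encodes an epsin, an endocytic adaptor, and its 789 bp exon (chr3:39663793-39664581) had 265, 467 and 539 inclusion reads without a skipping read in siblings. Mutants had 11, 10 and 22 skipping reads, for inclusions of 88.5, 88.4 and 78.1%, which lie below the sibling limits of 93.3 to 96.6%. Without effective lengths the difference of -15.02 points was -2.78. *sh3rf1*, a ubiquitin ligase with SH3 domains, had 100, 88.9 and 100% against 69.6, 72.2 and 75.3%. *bin1b* encodes a protein that shapes membranes in muscle and elsewhere, and its 132 bp exon had 28.2, 41.4 and 44.0% against 15.9, 26.1 and 14.3%. *syngap1b*, a regulator of Ras at synapses, had 100, 59.4 and 100% against 36.5, 39.5 and 100%, and these groups overlapped, with a difference of -27.8 points that lay between -48.5 without the 3rd and -16.7 without the 1st mutant.

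Cell cycle and DNA repair genes were few. All 5 events were higher in mutants, but no event had groups that did not overlap and 2 had under 20 reads in some library. Among all skipped exons 25.2% were higher and 43.6% did not overlap. At 20 reads or more in every library these shares were 19.7 and 65.6%. One of the 5 genes, *cdc42se1*, an effector of the GTPase CDC42, is in this list by its symbol only. *cdca4* had 6.30, 15.2 and 5.81% in siblings and 36.8, 11.7 and 33.0% in mutants, with the 2nd mutant among the siblings. *ccnd2a*, cyclin D2, had 80.2 ± 6.91% and 86.7 ± 5.94%, a difference of 6.54 points that was 2.84 without the 2nd sibling and 3.60 without the 1st mutant. For the kinesin *cenpe* the difference of 7.41 points ranged from -5.21 points without the 1st sibling library to 15.3 points without the 1st mutant library.

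Expression of the host genes was compared with edgeR's quasi-likelihood test over all 24809 genes with enough counts, 305 of the 319 host genes among them. Of these, 70 (23%) were called higher in mutants at an adjusted p under 0.05, against 13.6% of all genes tested, and 27 (8.85%) were called lower, against 14.3%. Their median log2 fold change was 0.10, beside 0.01 over all genes tested. Host genes were also more highly expressed, with a median of 5.79 FPKM against 3.99 FPKM, and an event needs reads to be listed, so the 2 sets of genes differ in depth. Of the 70 and 27 calls, 43 and 17 held in every fit with 1 library left out. No test of the difference between the shares was made.

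Host genes called higher outnumbered those called lower whichever way inclusion differed. Among the 216 tested genes with lower inclusion in every event, 47 were called higher and 18 lower. Among the 85 with higher inclusion in every event, 22 were called higher and 9 lower. Over all genes tested 13.6% were called higher and 14.3% lower, and neither set was tested against these shares. *pklr*, a pyruvate kinase of liver and red cells, was lower in both measures, with inclusions of 99.2, 99.3 and 99.5% in siblings and 87.6, 87.6 and 76.2% in mutants at a 132 bp exon and a log2 fold change of -1.755 (SE 0.16, adjusted p = 0.000113). The liver marker *fabp10a* had a log2 fold change of -2.73 (SE 0.14, adjusted p = 5.6e-06), but it was the only 1 of 5 liver markers called in either direction. Of the 4 tested red blood cell markers none was called. The part of liver or red cell content in the *pklr* values was not tested. *ppp2r3a* had lower inclusion and a log2 fold change of 0.68 (SE 0.07, adjusted p = 0.000223), and *kdm6a* likewise 0.67 (SE 0.07, adjusted p = 0.00016). *srsf7b* had a log2 fold change of -0.68 (adjusted p = 0.017), called in 5 of the 6 fits with a library left out. *SNAP91* (-0.22, adjusted p = 0.0437) was called in only 1 of those fits, *srsf11*, *bptf*, *obscnb* and *col11a1a* in 2 and *col11a2* in 4. These adjusted p are Benjamini-Hochberg values of edgeR over all genes tested.

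**Figure D5:**
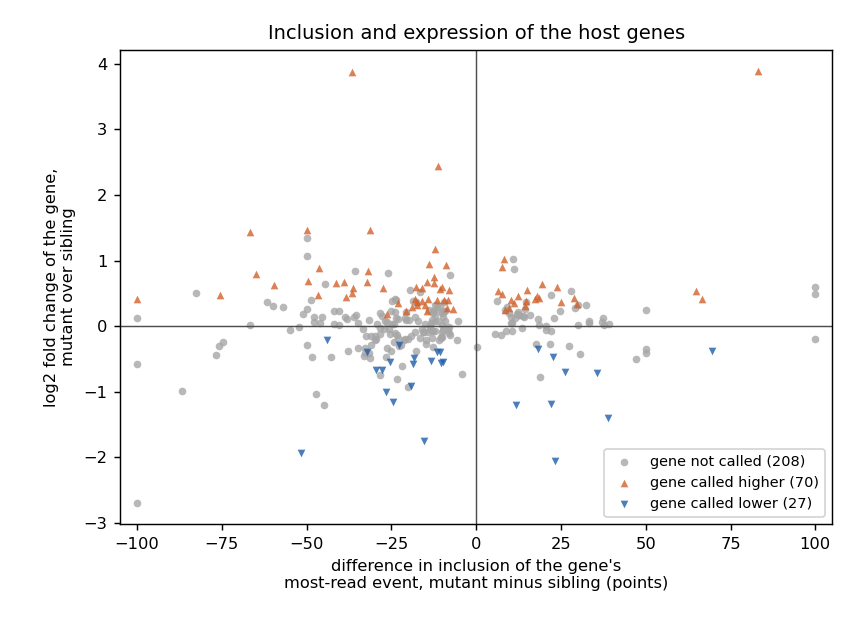
Log2 fold change of each of the 305 tested host genes (y axis, mutant over sibling) against the difference in inclusion of its most-read long exon event (x axis, percentage points). Triangles up are the 70 genes called higher, triangles down the 27 called lower and grey circles the 208 not called, and called genes of both kinds lie on both sides of zero difference.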

How the data were processed

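Total RNA of whole larvae was sequenced by the authors after library preparation with the NEBNext Ultra kit. The authors deposited reads counted on each of 37898 genes as counts, and FPKM made from them. The submitters' processing notes name HISAT2 2.0.5, featureCounts 1.5.0-p3 and the build GRCz11. The authors ran rMATS, whose version is not given in the sources used here, and deposited for each significant event the read counts of both forms, the effective lengths in bp and inclusion levels as a fraction. Fold and p-value columns of the authors' own comparisons, with their FDR, were not used.

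Read counts of 3 libraries are packed in a cell, some without separators. Of the 363 rows, 354 were read as written, 6 were recovered because a single split matched the deposited levels within 0.0011, and for 3 the levels were used without all reads. Inclusion was recomputed from reads and effective lengths. Single values have 95% Wilson intervals, and 3 reads were allowed for a form with none. The median interval width was 26.8 points over members and 18.5 points over the 50 named events.

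Events were named if among the 12 largest differences in mean inclusion in each direction, 1 event per exon, with at least 20 reads in every library and no overlap, or among up to 4 further genes of each list by absolute difference at the same depth. Genes outside this rule (*rbm4.2*, *myo18ab*, *cep170b*, *CEP170B*, *celf1*, *srrm1*, *srsf6b*, *foxp2*, *dnmt3ba*, *map4l*, *myom1b*, *stxbp1a*, *nrxn3a*, the 133 bp exon of *znf536*, *tnrc6c1*, *pklr*) were chosen after their values were seen. A gene that the rule named is not reported here. The members, lists and rules were chosen with earlier results of these data known, and 1 list pattern was corrected afterwards because it matched DNA methyltransferases.

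Counts were tested with edgeR 4.0.16 in R 4.3.3 (filterByExpr, TMM, quasi-likelihood F test, Benjamini-Hochberg at 0.05) and, as an alternative, DESeq2 1.42.0. The standard error is the log2 fold change over the root of F. For CPM, counts were divided by the effective library size. Python 3.11.15 and pandas 2.3.3 were used for events. Both steps were tested on simulated data. A genome of this build was not used here, so no exon sequence is shown.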

Additional observations from a re-analysis of the deposited data

How the results depend on the processing

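Counts of members depend on the filters, partly because fewer events enter. Lower and higher events numbered 156 and 57 with at least 10 reads in every library, 130 and 47 with at least 20, and 153 and 69 for exons over 150 bp, where 91 did not overlap. The median difference of -14.7 points was -9.03 without effective lengths, -12.7 and -12.4 with at least 10 and 20 reads, -17.8 for differences of at least 10 points, -12.9 with at least 10 reads of the rarer form (chosen after seeing the data) and -15.9 to -13.3 with each library left out, lowest in size without the 3rd mutant. Leaving out a library gave 239 to 254 lower, 100 to 113 higher and 167 to 178 separated events. Rows left without a difference or without a value count in neither direction. Groups separate more easily with a library fewer, so the last counts cannot be compared with the 146 separated events over all libraries. The same count over all skipped exons was not made. Multiples of 3 made up 70.1% at 20 reads or more. Host genes called numbered 16 (8 higher, 8 lower) when the fold change had to reach 1 on the log2 scale, and 71 to 112 (50 to 76 higher, 21 to 36 lower) with a library left out. Other scalings, filters and DESeq2, 1 event per exon and leaving out *matn4* stayed within 1.5 times each count. The replicate block gave 90 calls (68 higher, 22 lower). Deviations of same-numbered libraries correlated at 0.046, 0.022 and -0.099, and those of other pairs at -0.088 to 0.070. Expression thus showed no sign of pairing by number, which does not establish that same-numbered libraries are unrelated. For the 50 named events, 299 of 300 values with a library left out kept their direction, but 13 events moved by over 1.5 times (given beside each gene), and *cenpe* ranged from -5.21 points, reversed, without the 1st sibling to 15.3 without the 1st mutant. Where the groups do not overlap, as in most named events, leaving out a library cannot reverse the direction. The kept directions of such events were thus fixed in advance, and only events with overlapping groups could reverse. Shares of reads without effective lengths reversed none of the 50 and moved 22 by more than the spread. Effective lengths are the same for all libraries of a row, so shares keep the order of the libraries. Events whose groups do not overlap could therefore not reverse here either. Of these 22, *srsf11* moved towards a larger difference (-20.8 to -23.1 points). By over 1.5 times they moved 25, all of them towards smaller differences. Among these were *rbm4.1* (23.7 to 5.70 points), *cdh18a* (-26.6 to -8.06), *sh3rf1* (-23.9 to -6.59), *zgc:112982* (15.9 to 4.25), *myo18aa* (15.9 to 6.36), *acana* (-39.0 to -22.8) and *tjp1a* (-41.95 to -26.6). A stricter FDR was not run, since it needs the authors' own p-values. The 3 libraries a group and the few skipping reads of long exons limit precision.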
